A study of Mus musculus with 7 samples.

Results

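The 5 genes described here, Sprr1a, Sprr1b, Sprr3, Sprr4 and Ivl (involucrin), encode precursor proteins of the cornified envelope and were chosen by name from 19937 genes measured on the arrays. All 5 were measured, each by a single probe set annotated to that gene and no other. The RNA, hybridised to 7 arrays, was labelled as from mouse tissue, and the mice had a mixed C57BL/6 and 129 background. All groups carried the label of topical 4OHT (4-hydroxytamoxifen, which activates proteins fused to a modified oestrogen receptor), with time points of day 6 and day 0. The groups were day 6 Iqgap1 knockout (2 arrays), day 6 wild type (2 arrays), day 0 Iqgap1 knockout (2 arrays) and day 0 wild type (1 array). Iqgap1 encodes a scaffold for MAP kinases, and the study as titled was about blocking its contact with them in tumours driven by Ras. No inducible transgene, promoter or precise tissue was labelled. Whether replicate arrays stand for different mice was not stated, so p-values cover array-to-array spread alone, which may be technical.

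The cornified envelope is the cross-linked protein shell that replaces the plasma membrane of keratinocytes at the surface of stratified epithelia. Involucrin is among the first proteins laid down under the membrane, and transglutaminases then join it through glutamine and lysine residues to loricrin and to the small proline-rich (Sprr) proteins, which act as cross-bridges. Many envelope genes, though not all, sit together on one chromosome in the epidermal differentiation complex. In skin, Sprr1 genes are known to be induced when keratinocytes are stressed or differentiate faster, Sprr3 is best known from the oral and oesophageal lining, and in human skin SPRR4 has been tied to ultraviolet exposure. AP-1, Ets and Klf factors are known regulators of SPRR and involucrin promoters.

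The promoters of 4 of the genes are printed here. Sprr1b and Sprr3 passed the test for day described below, and Sprr1a and Ivl did not. Whether the day changes differ between these genes was not tested, nor was any part of the motifs in them. They are RefSeq windows of build GRCm38.p6 on chromosome 3, from 250 bases before to 50 bases after the start of the transcript, 5′ to 3′ on the gene's strand. Capitals mark matches to TGACTCA (AP-1), AGGAAGT (Ets) or GGGTGTG (Klf) on either strand.
Sprr1a (chr3:92485832-92486131, minus strand): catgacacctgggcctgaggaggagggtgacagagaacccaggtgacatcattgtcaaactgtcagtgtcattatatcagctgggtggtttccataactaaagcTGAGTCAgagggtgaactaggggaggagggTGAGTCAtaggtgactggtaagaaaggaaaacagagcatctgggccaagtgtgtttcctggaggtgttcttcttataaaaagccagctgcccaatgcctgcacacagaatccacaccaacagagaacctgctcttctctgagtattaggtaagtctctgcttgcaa
Ivl (chr3:92573686-92573985, minus strand): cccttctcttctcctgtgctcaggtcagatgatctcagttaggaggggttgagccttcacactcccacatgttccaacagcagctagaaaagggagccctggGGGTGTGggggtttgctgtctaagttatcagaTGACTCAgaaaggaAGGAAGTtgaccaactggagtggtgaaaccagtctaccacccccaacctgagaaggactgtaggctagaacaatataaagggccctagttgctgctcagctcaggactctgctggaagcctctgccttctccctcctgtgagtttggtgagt
Sprr1b (chr3:92438730-92439029, minus strand): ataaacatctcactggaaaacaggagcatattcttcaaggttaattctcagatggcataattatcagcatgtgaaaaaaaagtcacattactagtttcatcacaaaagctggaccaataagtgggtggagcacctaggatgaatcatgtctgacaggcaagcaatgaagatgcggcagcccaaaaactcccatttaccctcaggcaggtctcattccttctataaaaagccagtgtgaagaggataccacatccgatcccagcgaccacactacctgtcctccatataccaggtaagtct
Sprr3 (chr3:92458671-92458970, minus strand): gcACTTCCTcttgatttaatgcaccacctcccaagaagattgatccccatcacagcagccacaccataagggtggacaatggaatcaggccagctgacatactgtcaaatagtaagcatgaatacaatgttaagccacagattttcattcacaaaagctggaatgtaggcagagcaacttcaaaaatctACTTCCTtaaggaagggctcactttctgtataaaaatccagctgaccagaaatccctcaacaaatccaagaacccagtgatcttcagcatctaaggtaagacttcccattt

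The AP-1 letters were found in 2 of the 5 windows and in 5.17% of 27025 promoters of the same length. Sprr1a held them at 146 and at 116 bases before the start, and Ivl held them once, at 116 bases. The Ets letters stood in Ivl and, at 248 and 61 bases before the start, in Sprr3 (9.57% of all promoters). The Klf letters were found in Ivl alone among the 5 (7.85% of all promoters). A TATAAA box on the gene's strand, not capitalised above, began 43 bases before the start in Sprr1a, 33 in Sprr3, 30 in Sprr1b and 29 in Ivl, and was found in 8.88% of all promoters. Sprr1b held none of the AP-1, Ets or Klf letters. The RefSeq model of Sprr4 is 231 bases long and opens with ATG, so its window ends inside the coding sequence; it held no match and is not printed. None of these motifs shared bases with another, and a match is only a match of letters.

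Before the 5 genes are compared, some facts on the arrays bear on them. The log2 level of Iqgap1 at day 6 was 8.58 and 8.67 in the knockout arrays and 10.11 and 10.59 in the wild-type arrays, and at day 0 it was 9.02 and 8.99 in knockout and 9.94 in wild type. Knockout was the lower on each day, with log2 differences of -1.73 ± 0.20 (SE, limma adjusted p 0.503, first of all genes by p) at day 6 and -0.94 ± 0.24 (0.0461) at day 0, and where the probe set lies relative to the deletion was not used here. Xist, an RNA of the inactive X chromosome, stood above 10 in 2 arrays, wild-type replicate 1 of each day, and between 3.55 and 4.03 in the other 5. The spread of values over all probe sets was narrower in these 2 arrays (SD 2.385 and 2.404, against 2.45 to 2.49). The wild-type day 0 array also stood apart in hair genes. The 10 measured hair shaft and root sheath markers averaged 11.71 in it, against 4.86 to 6.22 in the other 6 arrays. Every value that rests on wild type at day 0 therefore rests on 1 array with Xist signal and high hair markers, whose part in the results was not tested beyond the values given below. Basal keratinocyte genes averaged between 9.77 and 10.95 (9 genes), so stratified epithelium was represented on every array.

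Sprr1b and Sprr3 rose between day 0 and day 6, while the other 3 genes did not pass the test. The day 6 level of Sprr1b was 2.01-fold and that of Sprr3 3.14-fold the day 0 level over both genotypes. Sprr1a differed by 1.27-fold without overlap between the days. Sprr4 and Ivl overlapped between the days. With limma, 2 of the 5 genes rose at an adjusted p under 0.05 and 0 fell, where 5.85% of all 19937 genes rose and 5.62% fell (11.5% in either direction). At an unadjusted p under 0.05 there were 3 of the 5, the third being Sprr1a, and 26.4% of all genes. The median log2 fold change was 0.34 over the 5 genes and 0.06 over all genes. In bulk tissue, more cells that express a gene and more RNA per cell cannot be told apart.

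**Figure D1:**
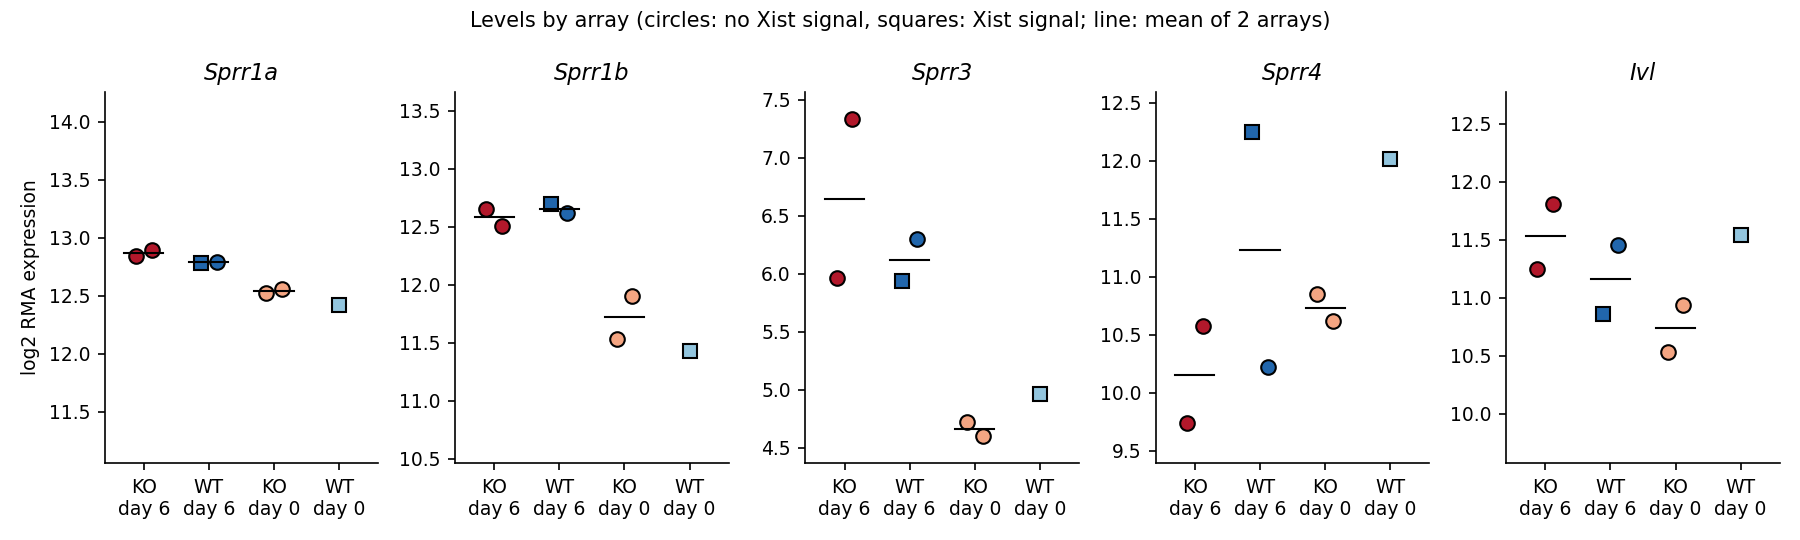
Log2 RMA level of each gene (vertical axis, 3.2 log2 units in every panel) on each array, by genotype and day. Red and orange are Iqgap1 knockout (KO) and blue is wild type (WT). Circles are arrays without Xist signal, squares arrays with it, and lines the mean of 2 arrays. All 4 day 6 arrays lie above all 3 day 0 arrays for Sprr1a, Sprr1b and Sprr3, and the 2 squares are the highest Sprr4 values.

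Sprr1b encodes a cross-bridging envelope protein. Its log2 level at day 6 was 12.66 and 12.51 in the knockout arrays and 12.70 and 12.62 in the wild-type arrays. At day 0 it was 11.53 and 11.91 in knockout and 11.43 in wild type. The days did not overlap. For comparison, all 4 day 6 arrays lay above all 3 day 0 arrays for 11.9% of all genes and below them for 9.66%. The fitted log2 fold change was 1.01 ± 0.15 (SE), with a limma adjusted p of 0.0106. Without knockout day 0 replicate 1 the adjusted p was 0.0536.

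Sprr3, the member best known from internal stratified epithelia, had the largest fitted change of the 5. Its log2 level at day 6 was 5.96 and 7.33 in knockout and 5.94 and 6.30 in wild type. At day 0 it was 4.72 and 4.60 in knockout and 4.96 in wild type. Again the days did not overlap, and knockout day 6 replicate 2 stood above the other arrays. Day 0 levels were close to the level of genes without signal, taken from Xist, Uty, Kdm5d and Eif2s3y (the last 3 Y-linked) on arrays where they had no signal (3.50 to 4.25), where RMA values are compressed. The fitted log2 fold change was 1.65 ± 0.35 (SE), with a limma adjusted p of 0.0304. It was 2.32 with array weights and 1.23 without knockout day 6 replicate 2. The call was lost without knockout day 0 replicate 1, without knockout day 0 replicate 2 (1.54) and without wild-type day 6 replicate 2 (1.65). That last array is the only wild-type array without Xist signal, so adding an Xist term gave the same fit as leaving it out. The call was also lost with a replicate block, a term for replicate number.

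Sprr1a, the near relative of Sprr1b, was high on all arrays. Its log2 level at day 6 was 12.84 and 12.89 in knockout and 12.78 and 12.79 in wild type. At day 0 it was 12.52 and 12.56 in knockout and 12.42 in wild type. The days did not overlap, but the difference was small, 0.34 ± 0.11 (SE) on the log2 scale, and did not pass (limma adjusted p 0.0895). It passed with array weights (0.0205) and with a trended, robust variance (0.0304). The highest value of any probe set was 13.19 to 13.38 per array, so little of the scale lay above Sprr1a. Signal shared between the probe sets of Sprr1a and Sprr1b was not tested.

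Ivl encodes involucrin, the early envelope scaffold. Its log2 level at day 6 was 11.24 and 11.81 in knockout and 10.86 and 11.45 in wild type. At day 0 it was 10.53 and 10.94 in knockout and 11.54 in wild type. Both knockout arrays of day 6 lay above both of day 0, whereas both wild-type arrays of day 6 lay below the single array of day 0. The share of all genes with such an order was not counted. Over both genotypes the difference was 0.32 ± 0.31 (SE) on the log2 scale and did not pass (limma adjusted p 0.577). With array weights it was 0.80 and passed (adjusted p 0.0496).

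Sprr4, whose human counterpart has been tied to ultraviolet exposure, overlapped between the days and between the genotypes. Its log2 level at day 6 was 9.74 and 10.57 in knockout and 12.25 and 10.22 in wild type. At day 0 it was 10.85 and 10.62 in knockout and 12.01 in wild type. The 2 highest values, 12.25 and 12.01, were those of the 2 arrays with Xist signal, and the other 5 lay between 9.74 and 10.85. The fitted difference between the days was -0.66 ± 0.47 (SE) on the log2 scale and did not pass (limma adjusted p 0.447). With an Xist term it was -0.31 (adjusted p 0.507).

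Within knockout, where each day has 2 arrays and none had Xist signal, Sprr1b and Sprr3 rose. With limma, 2 of 5 genes rose and 0 fell, where 7.24% of all genes rose and 9.07% fell (16.3% in all). At an unadjusted p under 0.05 there were 3 of 5, with Ivl, and 28.7% of all genes. The median log2 fold change was 0.79 over the 5 genes and 0.10 over all genes. Sprr1b was 1.82-fold higher at day 6 (log2 fold change 0.86 ± 0.18, SE, limma adjusted p 0.0219). Sprr3 was 3.95-fold higher (1.98 ± 0.41, SE, limma adjusted p 0.0203), with log2 fold changes of 2.67 without knockout day 6 replicate 1 and 1.30 without replicate 2. The other genes did not pass, with log2 differences of 0.79 ± 0.29 for Ivl, 0.33 ± 0.15 for Sprr1a and -0.58 ± 0.61 for Sprr4 (SE). Ivl had a limma adjusted p of 0.12, and 0.0441 when each array was centred on its median. With the replicate block its adjusted p was 0.0203. Without knockout day 0 replicate 1 neither call was left (adjusted p 0.171 for Sprr1b and 0.0758 for Sprr3). Sprr3 was lost without day 0 replicate 2 (0.0753), and Sprr1b without day 6 replicate 1 (0.14) or 2 (0.0706).

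Within wild type, against its single day 0 array, Sprr1b rose. It was 2.34-fold higher at day 6 (log2 fold change 1.23 ± 0.22, SE, limma adjusted p 0.0232), where 3.51% of all genes rose and 3.61% fell (7.11% in all). It was also the single gene of the 5 with an unadjusted p under 0.05, as were 20.4% of all genes. The adjusted p was 0.0517 with an Xist term or without wild-type day 6 replicate 2, 0.0551 with array weights and 0.0502 without either knockout day 6 array. Sprr3 differed by 1.15 ± 0.51 and Sprr1a by 0.37 ± 0.18 (log2, SE), without passing. Ivl (-0.38 ± 0.35) and Sprr4 (-0.78 ± 0.75) were lower at day 6, also without passing. Within the 2 wild-type arrays with Xist signal, 1 of each day, the day 6 minus day 0 differences were 1.26 for Sprr1b, 0.98 for Sprr3, 0.37 for Sprr1a, 0.235 for Sprr4 and -0.68 for Ivl. Sprr4 thus changed sign there.

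**Figure D2:**
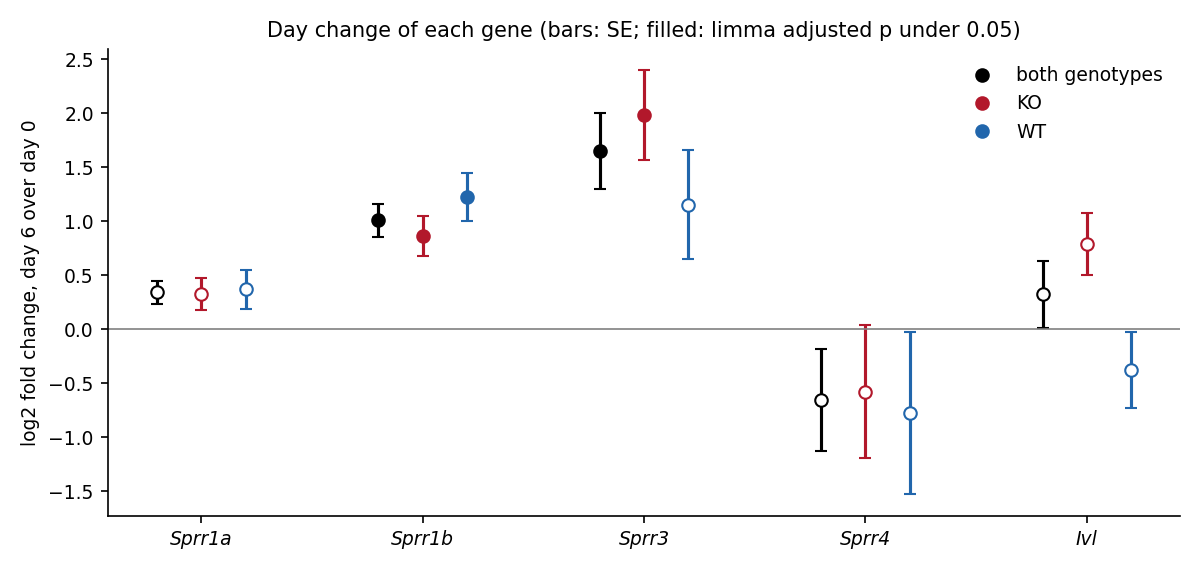
Fitted log2 fold change of day 6 over day 0 (vertical axis) for each gene, over both genotypes (black), in knockout (KO, red) and in wild type (WT, blue), with bars of 1 SE. Filled points had a limma adjusted p under 0.05: Sprr1b in all 3 fits and Sprr3 over both genotypes and in knockout.

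The next question was whether loss of Iqgap1 altered these genes. At day 6, 0 of the 5 differed between knockout and wild type with limma, at an adjusted or an unadjusted p under 0.05. Over all genes 0% were called at an adjusted p under 0.05, while 1182 genes (5.93%) had an unadjusted p under 0.05. Iqgap1 itself, first of all genes by p, was not called here (limma adjusted p 0.503). The lack of a call therefore does not show that the 5 genes were unaltered. Sprr1a, at 12.87 ± 0.04 in knockout and 12.79 ± 0.01 in wild type, differed by 0.08 with a 95% interval of -0.27 to 0.43 (log2 values, SD, n = 2 each). Sprr1b, at 12.58 ± 0.11 in knockout and 12.66 ± 0.05 in wild type, differed by -0.07 (-0.51 to 0.36). The intervals of the other 3 genes were wider. Both Sprr1 genes lay near the highest values of any probe set (13.19 to 13.38 per array), and the part of that ceiling in their narrow intervals was not tested. Sprr3, at 6.65 ± 0.97 in knockout and 6.12 ± 0.25 in wild type, differed by 0.53 (-0.45 to 1.51). Ivl, at 11.53 ± 0.40 in knockout and 11.16 ± 0.42 in wild type, differed by 0.37 (-0.31 to 1.05). Sprr4, at 10.15 ± 0.59 in knockout and 11.23 ± 1.43 in wild type, differed by -1.08 (-2.54 to 0.38).

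The 2 wild-type arrays of day 6 disagreed on Sprr4. Within the arrays without Xist signal the knockout minus wild-type difference was -0.07, and against the array with Xist signal alone it was -2.09, with limma adjusted p of 0.990 and 0.0754. For Ivl these 2 values were 0.07 and 0.67. Both knockout arrays of Sprr1a lay above both wild-type arrays, as they did for 15.9% of all genes. The other 4 genes overlapped.

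At day 0 the comparison rested on the single wild-type array. The values here are without the replicate block, with which Ivl passed. None of the 5 genes passed with limma, adjusted or unadjusted, where 14.4% of all genes were called (8.53% higher and 5.86% lower in knockout) and 30.6% had an unadjusted p under 0.05. Ivl was at 10.53 and 10.94 in knockout and 11.54 in wild type, a log2 difference of -0.80 with a 95% interval of -1.64 to 0.03. Sprr4 differed by -1.28 (-3.07 to 0.51). With an Xist term the value was 0.75, but that term was set by the wild-type arrays of day 6 alone. It therefore cannot separate Xist signal from genotype at day 0. Sprr1b (0.29), Sprr1a (0.12) and Sprr3 (-0.30) differed by less. At this day genotype, sex as read from Xist and the Y-linked genes, and hair marker level cannot be told apart.

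**Figure D3:**
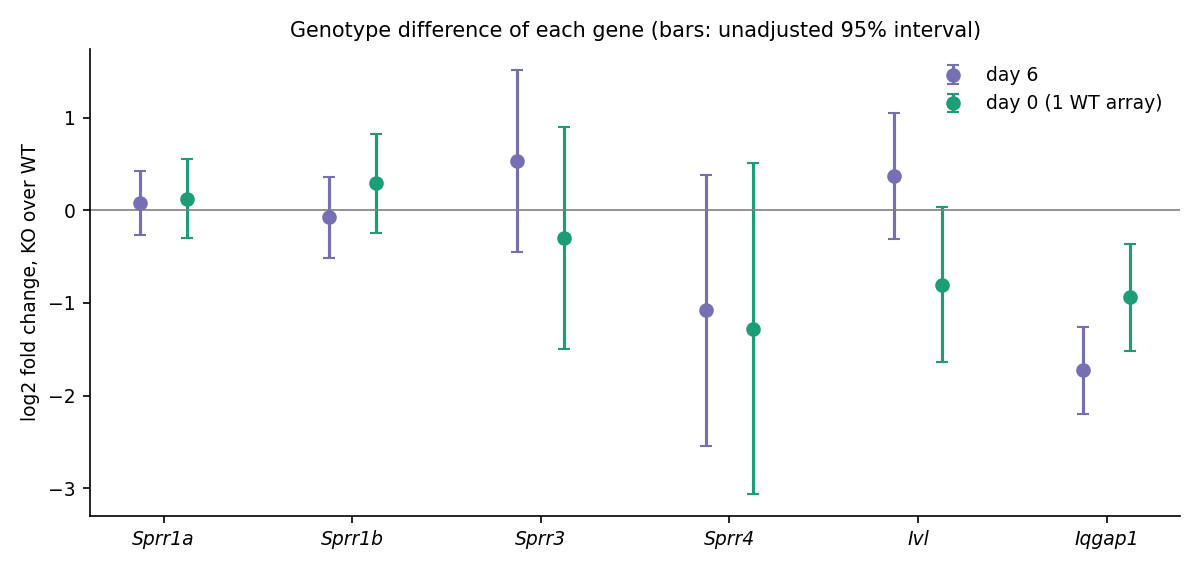
Knockout (KO) minus wild type (WT) on the log2 scale (vertical axis) for the 5 genes and Iqgap1, at day 6 (purple) and day 0 (green, 1 wild-type array), with unadjusted 95% intervals from the fit of 4 group means. The intervals of the 5 genes all cross 0, and those of Iqgap1 lie below it.

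Over both days, 0 of the 5 genes differed by genotype at an adjusted p under 0.05 with limma, and 0% of all genes did. Sprr4 had an unadjusted p of 0.0454, as 18.7% of all genes had one under 0.05, with a log2 difference of -1.16 ± 0.47 (SE, limma adjusted p 0.262), and 0.07 with an Xist term. The other 4 lay between -0.10 (Ivl) and 0.20 (Sprr3). The day change itself was compared between genotypes (knockout minus wild type). These values, too, are without the replicate block, with which Ivl passed. Of the 5 genes 0 passed, where 3.1% of all genes did (1.76% with a higher and 1.35% with a lower change in knockout) and 17.3% had an unadjusted p under 0.05. Ivl had the largest value, 1.17 ± 0.45 (SE, unadjusted p 0.0372, limma adjusted p 0.25). Sprr3 had a value of 0.83 ± 0.65 (SE, adjusted p 0.596, 95% interval -0.72 to 2.38), so whether its day change differed between genotypes was not resolved.

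Position set these genes beside others of the complex. In RefSeq order along chromosome 3, Sprr1b, Sprr3, Sprr1a, Sprr4 and Ivl follow one another among the measured genes, with Sprr2 genes on one side and Smcp and late cornified envelope (Lce) genes on the other. Of the 8 nearest measured genes on each side, 9 of 16 rose between day 0 and day 6 over both genotypes and 0 fell. All 8 Sprr2 neighbours rose, by log2 fold changes of 2.73 (Sprr2k) to 5.92 (Sprr2d). Of the 7 Lce neighbours, Lce1d rose (1.97 ± 0.25, SE, limma adjusted p 0.00611). Smcp, a sperm mitochondrial protein gene, differed by 0.19 and Lce6a by -1.06, neither passing. The fitted values were highest for the Sprr2 genes and lower for Sprr1b (1.01) and Sprr3 (1.65). Sprr1a had 0.34, Ivl 0.32 and Sprr4 -0.66. The 7 Lce genes ran from -1.06 (Lce6a) to 1.97 (Lce1d, above Sprr3), so the values did not fall steadily along the order. Close relatives among the Sprr2 and Lce genes can share probe signal.

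**Figure D4:**
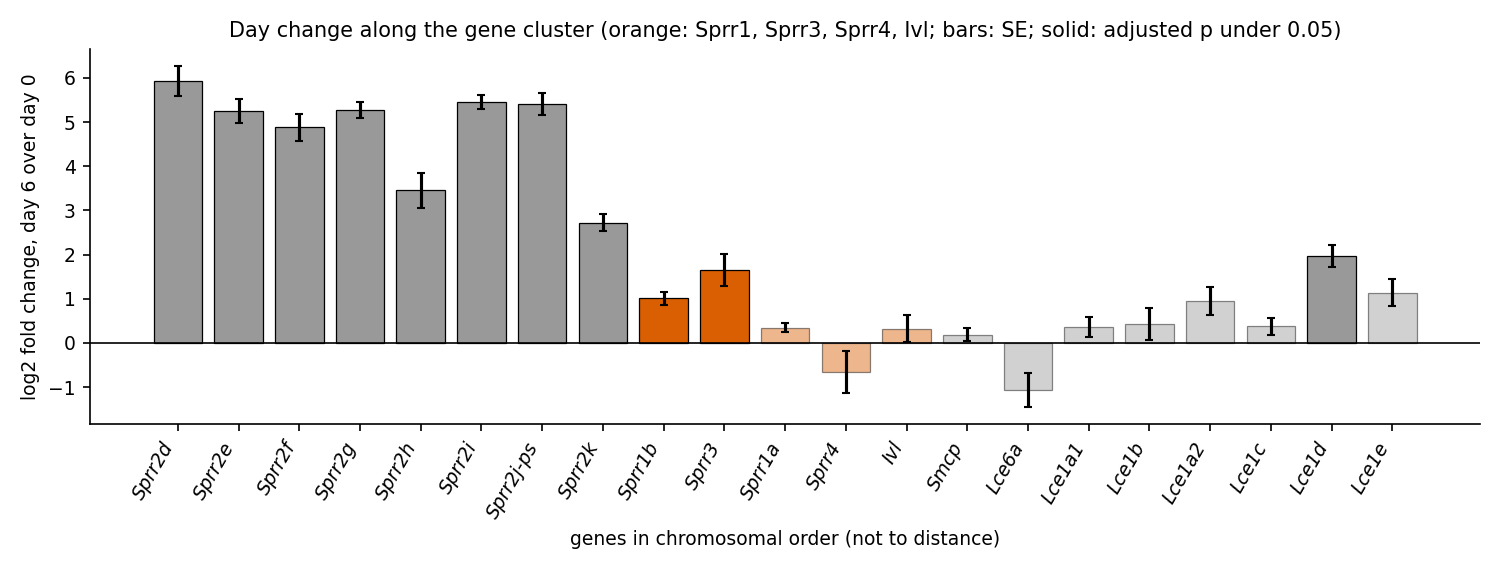
Log2 fold change of day 6 over day 0 over both genotypes (vertical axis) for the 21 measured genes of the neighbourhood, in chromosomal order with distances not drawn. Orange bars are the 5 genes described here, grey bars their neighbours, error bars 1 SE, and solid colours a limma adjusted p under 0.05. The 8 Sprr2 bars are the tallest, and Sprr4 and Lce6a lie below 0.

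Other genes of envelope assembly were taken from lists drawn up from textbook knowledge, with earlier results of these data known. Of 9 measured Sprr2 genes, 9 rose, with a median of 5.25, and the same 9 of 9 rose within each genotype. Over both genotypes, 3 of 19 other envelope proteins rose, 1 fell and 15 did not pass (median 0.31). Those that rose were Rptn (repetin, 2.79 ± 0.21), Csta1 (a cystatin, 2.57 ± 0.33) and Cnfn (cornifelin, 0.94 ± 0.15), while the filaggrin relative Flg2 fell by 3.67 ± 0.57 on the log2 scale (SE). Limma adjusted p for these lay between 0.00118 and 0.0114. These calls are from the fit over both genotypes, and not all of them held within wild type, against its single day 0 array. The 5 transglutaminases belong to a family that includes the enzymes that cross-link the envelope. Of these 5, Tgm5 (1.65 ± 0.16) and Tgm1 (0.95 ± 0.14, SE) rose over both genotypes, and Tgm2 fell by 2.13 on the log2 scale. The Tgm2 change was -2.89 in knockout and -0.99 in wild type. Tgm3 rose in knockout (4.60 ± 0.43, SE, limma adjusted p 0.00114) and differed by -0.25 in wild type, against the array with high hair markers (test of the difference 4.85 ± 0.68, SE, adjusted p 0.0184). Tgm3 is also expressed in hair follicles.

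Among genes of the factors whose motifs were searched, 1 of 9 AP-1 genes rose and 3 fell over both genotypes (median -0.08, and 0.0095 with centred arrays). Junb rose (0.61 ± 0.12), and Fosb (-3.84 ± 0.38), Atf3 (-2.73 ± 0.32) and Jund (-0.84 ± 0.17, SE) fell. Of 14 other regulators 5 rose and 1 fell over both genotypes (median 0.53). The epithelial Ets factors Elf3 (3.27 ± 0.19) and Ehf (1.35 ± 0.18), the repressor Prdm1 (1.21 ± 0.16) and the differentiation factor Zfp750 (0.86 ± 0.16, SE) were among those that rose, with limma adjusted p of 0.000514 to 0.0212. The calls named here are those over both genotypes, and not all of them held within wild type alone. All of these values are RNA levels and say nothing of factor activity.

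Markers of several other tissues moved with day. Of 10 skeletal muscle markers 6 fell and 0 rose, and the mean of the list was 8.15 to 9.58 on day 6 arrays and 10.51 to 12.14 on day 0 arrays. Of 7 adipocyte markers 5 fell and 0 rose, with list means of 6.74 to 7.70 at day 6 and 10.08 to 10.90 at day 0. Of 8 fibroblast markers 4 fell, and of 8 sebaceous gland markers 4 fell, and 0 rose in either list. Basal keratinocyte genes, a measure of the epithelium itself, had 2 that rose, 1 that fell and 6 that did not pass, with list means of 10.80 to 10.94 at day 6, against day 0 means of 10.85 and 10.95 for knockout and 9.77 for wild type. Within knockout 2 of the 9 rose and 1 fell (median 0.32, range -3.58 to 1.30), and within wild type, where Sprr1b rose by 1.23, 6 rose and 1 fell (median 1.47). Of 10 macrophage and neutrophil markers 0 passed over both genotypes (median 0.01), and 1 rose within wild type. Of 10 hair markers 0 passed over both genotypes and 0 within knockout, while 10 fell within wild type (median -6.17). The part of tissue makeup in these rises was not tested.

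**Figure D5:**
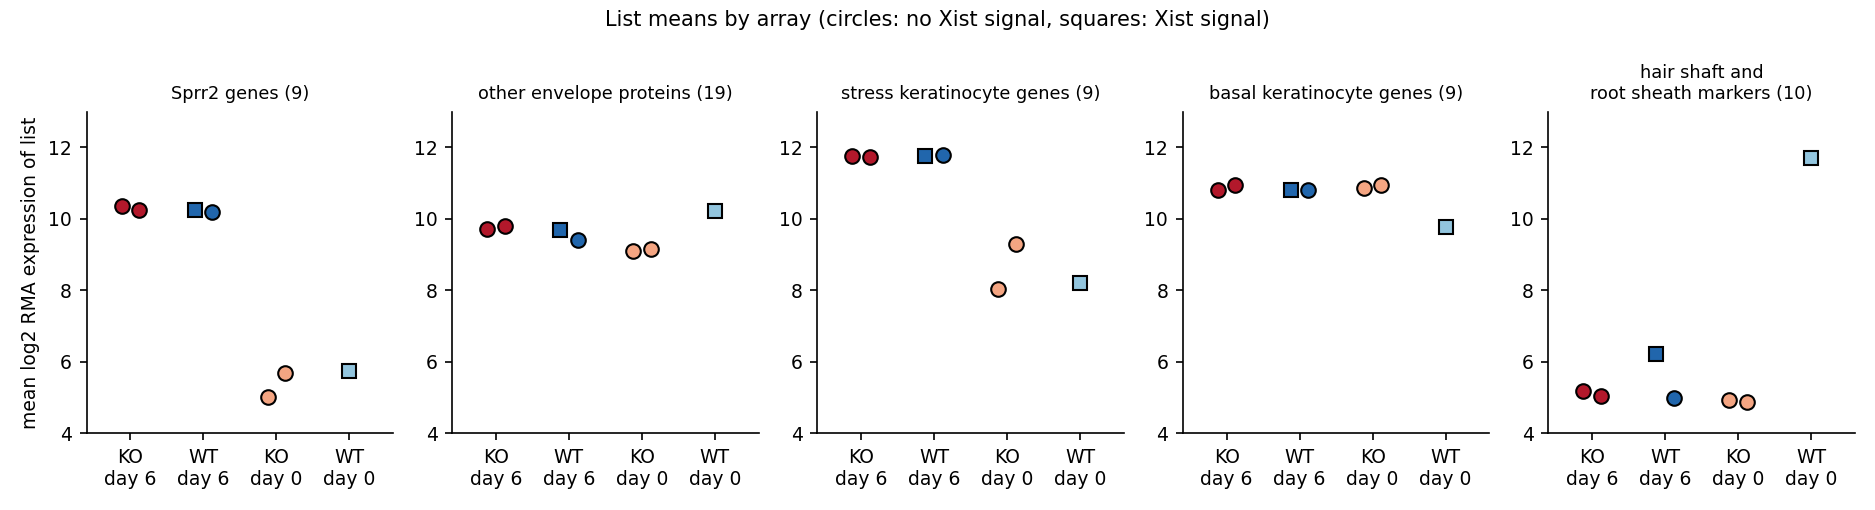
Mean log2 RMA level of each gene list (vertical axis, number of measured genes in brackets) on each array. Colours and symbols are as in the plot of levels by array. Sprr2 and stress keratinocyte genes are high on all 4 day 6 arrays, and the hair marker mean is 11.71 on the wild-type day 0 array only.

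Likeness over the 7 arrays was described with Pearson's r, with no test, since 7 points share 4 groups. Among the 5 genes, r was 0.95 for Sprr1a with Sprr1b, 0.89 for Sprr1a with Sprr3 and 0.77 for Sprr1b with Sprr3. Sprr4 was negative against each of the others, from -0.16 with Ivl to -0.44 with Sprr1a. Over the other 18613 named genes the median r lay between 0.06 (Ivl) and 0.15 (Sprr1b). The gene next in rank after those named below had r of 0.992 (Sprr1a), 0.9925 (Sprr1b), 0.971 (Sprr3), 0.962 (Sprr4) and 0.953 (Ivl). The last gene named for each member was thus little set apart from the one after it. The genes most like Sprr1a were the desmosomal cadherin Dsg1b (0.994), the urate transporter Slc2a9 (0.9935) and the interleukin-17 receptor subunit Il17re (0.992). Those most like Sprr1b were Tmigd1 (0.994), the ephrin Efnb1 and the interleukin-36 family cytokine Il1f8 (0.993 each). Those most like Sprr3 were the adaptor Grb7 (0.988), Ap5z1 (0.979) and the galectin Lgals4 (0.979). Ivl was nearest to Wdr90 (0.962), the kinase Pak4 (0.961) and Dgkz (0.957). Sprr4 was nearest to Eqtn (0.983), Adam32 (0.967) and Plcz1 (0.966), genes known from sperm. Their levels were 3.36 to 4.12 on all arrays, at or near the level of genes without signal, and like Sprr4 they were highest on the 2 arrays with Xist signal and the narrower spread of values.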

How the data were processed

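The platform was the Affymetrix Mouse Gene 1.0 ST array (7 arrays). The authors deposited log2 expression per probe set, for which the submitters' processing notes name RMA and R 2.11.1; values lay between 2.37 and 13.38, as log2 values do. RMA corrects background, normalizes arrays by quantiles and summarizes probes, which compresses low values. Settings and array batches are not given in the sources used here. The number of arrays limits the precision.

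Of 34760 probe sets, 21640 had 1 gene symbol in the platform's gene table, 1321 several and 11799 none. A gene was measured by the probe set naming it alone with the highest mean, which gave 19937 genes, 19855 of them matched to RefSeq genes. All 5 members had 1 such probe set and a RefSeq promoter (GRCm38.p6). Groups came from sample titles.

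Tests were two-sided and used limma 3.58.1 (lmFit, eBayes; R 4.3.3), with Benjamini-Hochberg adjustment over all genes at 0.05. Comparisons over both genotypes or both days used an additive fit (4 residual degrees of freedom), the others 1 fit of 4 group means (3). Standard errors and 95% intervals are limma's moderated ones, and folds are differences of log2 values. The procedure was run on simulated data with independent normal noise and no array unlike the others. That run therefore says nothing of how an array such as wild type at day 0 affects the calls.

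The members and gene lists were chosen with earlier results of these data known. Tchh stands in 2 lists. Named from each list were up to 4 genes with the smallest p for day over both genotypes, and for each member the 3 genes with the highest r, leaving out predicted genes. Lists are described by counts and medians, without a list test. Protein sequences were not used here. Alternatives changed the variance model, array weights, scaling, filter, probe sets, replicate block, Xist term and the arrays included.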

Additional observations from a re-analysis of the deposited data

Results flagged for a closer look

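The arrays of Ivl lay in opposite order in the 2 genotypes, though neither day change passed with limma (0.79 ± 0.29 in knockout, adjusted p 0.12, and -0.38 ± 0.35 in wild type, adjusted p 0.654; log2, SE). Both knockout arrays of day 6 lay above both knockout arrays of day 0, and both wild-type arrays of day 6 lay below the single wild-type array of day 0. Knockout minus wild type in the day change was 1.17 ± 0.45 (log2, SE), with a limma adjusted p of 0.25, so it did not pass. It ranged from 0.88 to 1.47 when 1 array was left out. With the replicate block, given below, this difference passed. The wild-type direction rests on 1 array of day 0, the one with Xist signal and high hair markers. How many of all genes show such an order was not counted, so the order alone does not set Ivl apart.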

How the results depend on the processing

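The day changes of Sprr1b and Sprr3 kept their direction in all 95 values computed under the alternatives, while calls did not hold. Since the days did not overlap for either gene, leaving out an array could not turn the direction. Several alternatives also left the fold change as it was, so the 95 values are no test of direction. Of the 2 members called over both genotypes, array weights gave 4 (Sprr1a, Sprr1b, Sprr3 and Ivl), and 1 was called with an Xist term, with the replicate block and with only genes above the median level, where Sprr3 was not tested; leaving out 1 array gave 0 to 2. It was 2 without the wild-type day 0 array and 2 without both arrays with Xist signal. In knockout the count of 2 was 3 with centred arrays and with the replicate block (Ivl added), 1 with that filter and 0 to 2 when 1 array was left out. In wild type the count of 1 was 0 with array weights or an Xist term and 0 to 1 when 1 array was left out; wild type without its day 0 array could not be fitted. The cause of these moves was not tested. For the day changes, the Xist term gave the same fit as leaving out wild-type day 6 replicate 2.

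Replicate numbers share no stated source, and deviations of same-numbered arrays correlated at 0.23, 0.086 and 0.037. Low correlations over all genes cannot show that arrays were unpaired, so whether the numbers pair the arrays was not settled. With the replicate block, Sprr3 over both genotypes was 1.57 and not called (adjusted p 0.0535), 1 member was called at day 0 and 1 for the difference in day change between genotypes (Ivl both times, 1.43 and adjusted p 0.0477 for the second), and Ivl in knockout had an adjusted p of 0.0203.

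Signs turned only for differences that had not passed. For Sprr4 an Xist term gave 0.235 for the wild-type day change, 0.75 for genotype at day 0 and 0.069 over both days. It gave -0.81 for the difference in day change, which was -0.037 with the replicate block. In the value for day 0 the Xist term was set by the wild-type arrays of day 6 alone. For genotype over both days, Sprr1b was -0.057 with array weights, -0.013 with centred arrays and -0.035 without the arrays with Xist signal, and Ivl was 0.44 with array weights and 0.074 without those arrays. Quantile normalization gave Sprr1a 0.0165 for the difference in day change. With 1 array left out, the wild-type day change of Sprr4 ranged from -1.79 to 0.235 and its difference in day change from -0.81 to 1.21. Genotype at day 6 ranged from -0.15 to 0.0003 for Sprr1b and from -0.16 to 1.21 for Sprr3, and genotype over both days from -0.074 to 0.14 for Sprr1b, -0.23 to 0.53 for Sprr3 and -0.36 to 0.37 for Ivl.

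Over all genes, calls for day over both genotypes numbered 2286, and 727 (without knockout day 0 replicate 1) to 5718 (array weights) otherwise. They numbered 3251 in knockout (1381 to 4808) and 1418 in wild type (1040 to 2209). For genotype they numbered 0 at day 6 (0 to 43), 2869 at day 0 (682 to 4609) and 0 over both days (0 to 836), and for the difference in day change 619 (143 to 1038). Centring the arrays gave 1575 rises and 973 falls over both genotypes, against 1166 and 1120, and raised the median of all genes by 0.11 for day in knockout and shifted it by -0.10 for genotype at day 0. Few arrays limit what could be detected.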

Other observations

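Keratinocyte genes outside the envelope also differed in how they moved with day. Of 9 measured stress keratinocyte genes, 8 rose over both genotypes and 0 fell, with a median log2 fold change of 3.85. The alarmin genes S100a8 (4.23 ± 0.30) and S100a9 (3.85 ± 0.29), the protease inhibitor gene Slpi (4.62 ± 0.33) and the epithelial cytokine gene Tslp (5.80 ± 0.44, SE) were the 4 with the smallest p. Of 12 spinous and granular genes, in contrast, 1 rose, 1 fell and 10 did not pass (median 0.30). Casp14, a protease of the cornifying layer, rose by 1.99 ± 0.21, and the keratin gene Krt77 fell by 6.27 ± 0.24 on the log2 scale (SE). At day 6, 0 genes of either list differed between knockout and wild type with limma, and 0 of all 19937 genes did (1182 at an unadjusted p under 0.05).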
